A study of Caenorhabditis elegans with 2 samples.

Results

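One-gene promoter sites are peaks of a ChIP-seq experiment (sequencing of DNA that is pulled down with a protein) on NHR-6. Each has its summit in the promoter window of a single protein-coding gene. Non-coding genes do not count for this, and some begin nearer to the summit. The sites were chosen by position alone. A site is a peak of the authors' reproducible (optimal) set on genome build ce11 that lies off the X chromosome. Its summit must fall in the promoter window, from 1000 bp before to 200 bp after an annotated transcript start (5′ end), of exactly 1 protein-coding gene (Ensembl WBcel235 models). The rule found 491 of the 1662 optimal peaks (29.5%), which is 38% of the 1292 autosomal ones, at 462 genes. The other autosomal peaks comprised 266 in the windows of several genes (shared promoter sites), 279 between genes and 256 inside genes beyond any promoter window.

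NHR-6 represents in the worm the NR4A nuclear receptors, transcription factors that act without a known activating ligand and bind DNA as monomers at the element AAAGGTCA, or as dimers at paired elements. In C. elegans the nhr-6 gene is known for its role in forming the spermatheca, the part of the hermaphrodite gonad that stores sperm. Promoters of broadly active worm genes are also occupied by many unrelated factors in ChIP-seq data, so a peak there does not by itself name the protein that contacts the DNA.

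The animals were second-stage (L2) larvae of strain OP90, genotype unc-119(ed3) III; wgIs90, in which the integrated transgene wgIs90 supplies NHR-6 fused to eGFP. Whole worms of both sexes were used, in 2 biological replicates that form 1 group, so every value mixes all tissues of the larva. No input or untagged library was analysed here, and no condition was compared. Each peak carries a signal value of the authors' making, of unstated scale, which is read only within a list. Read depth is unknown, and all p-values cover counting error over sites of these 2 samples.

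The sequences around the highest summits are shown first, because several of them have a long run of letters in common. Each line gives 50 bases on either side of the summit on the strand of the gene (build ce11, RefSeq genome). Capitals mark a run of 10 letters, AGCGTGTTTT, or its reverse complement AAAACACGCT. It is the longest run that the windows of the 3 highest sites have in common on either strand, and it was picked out after these sequences had been seen. The 6 highest sites that may be printed follow in order of signal.
cdc-48.1 (chrII:10563520-10563620, minus strand): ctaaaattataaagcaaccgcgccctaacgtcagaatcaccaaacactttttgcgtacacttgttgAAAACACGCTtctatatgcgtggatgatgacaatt
rpl-3 (chrIII:3867521-3867621, plus strand): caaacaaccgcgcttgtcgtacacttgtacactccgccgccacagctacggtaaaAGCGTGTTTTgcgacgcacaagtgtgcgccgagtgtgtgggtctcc
rpl-35 (chrIII:7854637-7854737, plus strand): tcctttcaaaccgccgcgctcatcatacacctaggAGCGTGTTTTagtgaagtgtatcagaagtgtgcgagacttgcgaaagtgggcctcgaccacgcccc
enee-1 (chrII:24595-24695, plus strand): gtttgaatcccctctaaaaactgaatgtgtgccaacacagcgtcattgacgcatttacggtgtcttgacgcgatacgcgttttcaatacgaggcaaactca
his-37 (chrV:9546972-9547072, plus strand): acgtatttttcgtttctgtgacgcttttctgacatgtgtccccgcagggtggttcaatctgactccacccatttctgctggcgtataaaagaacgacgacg
cox-5A (chrIII:12905128-12905228, plus strand): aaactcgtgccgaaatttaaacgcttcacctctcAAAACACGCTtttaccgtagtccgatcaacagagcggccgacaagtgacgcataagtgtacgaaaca

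The run was present in 4 of the 491 windows (0.815%), and those were the sites ranked 1, 2, 3 and 6 among the one-gene promoter sites. Measured to its nearest base, the run lay 16 bp from the summit at cdc-48.1, 5 bp at rpl-3, 6 bp at rpl-35 and 7 bp at cox-5A. At rpl-3 and cox-5A the common stretch extended to 21 letters, CTACGGTAAAAGCGTGTTTTG. None of the 266 shared promoter, 279 intergenic, 256 in-gene or 370 X-linked windows held the run, and neither did any window centred 250 bp to either side of the one-gene promoter summits. Among all 17242 autosomal promoters, in windows of the same length, 5 held it (0.029%). The genome has 255 matches in all. These 4 were the only ones within 100 bp of an optimal summit. The count is a description with no test, since the run was chosen from 3 of the 4 sites.

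The genes at these 4 sites serve basic cell functions. cdc-48.1 encodes the AAA ATPase CDC-48 (p97), which unfolds ubiquitin-marked proteins, rpl-3 and rpl-35 encode proteins of the large ribosomal subunit, and cox-5A encodes a subunit of cytochrome c oxidase. The site 163 bp upstream of cdc-48.1 had a pooled signal of 912.7, a replicate 1 signal of 627.8 and a replicate 2 signal of 305.2, rank 1 in each list. The rpl-3 site had 787.6, with 621.4 in replicate 1 and 201.1 in replicate 2, and the rpl-35 site 570.6, with 428.6 and 148.4. At cox-5A the values were 403.3, 299 and 101.3. All 4 sites were between genes and within the 23 highest peaks of each replicate.

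A different word was frequent near the summits over all sites. It was taken up with earlier results of these peaks known, so its test is no independent support. Capitals mark CTGCGTCT, or its reverse complement AGACGCAG, in the windows of the highest sites off the first chromosome that hold it.
gmeb-1 (chrII:18990-19090, plus strand): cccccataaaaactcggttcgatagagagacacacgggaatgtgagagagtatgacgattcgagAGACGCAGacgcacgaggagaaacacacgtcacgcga
zfp-1 (chrIII:8802095-8802195, plus strand): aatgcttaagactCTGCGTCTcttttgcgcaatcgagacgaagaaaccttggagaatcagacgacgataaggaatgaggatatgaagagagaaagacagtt
ntl-11 (chrIV:15471569-15471669, minus strand): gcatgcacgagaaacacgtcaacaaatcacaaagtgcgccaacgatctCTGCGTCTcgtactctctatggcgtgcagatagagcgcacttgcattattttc
fust-1 (chrII:7152120-7152220, plus strand): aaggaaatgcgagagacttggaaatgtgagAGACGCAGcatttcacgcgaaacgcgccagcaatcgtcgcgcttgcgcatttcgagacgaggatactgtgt

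CTGCGTCT was found, on either strand, within 50 bases of 63 of the 491 summits (12.8%), against 3 windows (0.611%) centred 250 bp to the right and 4 (0.815%) to the left. The exact McNemar test, two-sided, with Benjamini-Hochberg adjustment over 19 motifs, gave an adjusted p of 1.2e-14 against the right flank and 1.1e-13 against the left. Of all autosomal promoters 1.01% held the word in a window of this length, centred where the median site lies. In 33 of the 63 sites it was within 20 bp of the summit. The word read in the gene's direction in 39 sites and against it in 24. It was in 32 of the 163 highest sites, 17 of the next 163 and 14 of the lowest 165. The words GAGACGCA, in 56 windows, and GACGCAGA, in 52, overlap it and extend the same stretch.

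The word was present in every class of site. Its share was 9.02% (95% exact interval 5.87 to 13.1%) in shared promoter sites, 14.3% (10.4 to 19%) in intergenic, 10.2% (6.74 to 14.5%) in in-gene and 6.76% (4.42 to 9.81%) in X-linked sites, beside 12.8% (10 to 16.1%) here. The differences between these classes were not tested. The highest one-gene promoter sites with it were at gmeb-1 (320.8 pooled, 275 in replicate 1 and 46.49 in replicate 2), F36A2.7 (297.6, 220 and 76.08) and zfp-1 (280.6, 234.4 and 61.89). zfp-1 encodes a chromatin factor related to human AF10.

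Base composition moved with these results. The mean G and C content was 44.8% in windows at the summit, fell to 35.4% at 250 bp to the left and 35.1% to the right, and was 34.2% over all promoters. At the summits of the other autosomal classes it was similar, 45.2% in shared promoter, 43.3% in intergenic and 44.5% in in-gene sites. The tetramer CGCG was in 177 windows (36%) against 59 (12%) in the right flank (exact McNemar adjusted p = 1.6e-17), but the reversed letters GCGC were in 207 (42.2%). A comparison with reversed letters in the same window holds composition constant. By that comparison CACGTG, the related word CACGTCA and CTGCGTCT stayed more frequent than their mirror words, although the mirror of CTGCGTCT is itself part of the longer stretch named above and was in 52 windows.

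CACGTG is the E-box bound by bHLH factors of the MYC and TFE types, and GAGAGAGA is a GA repeat. Both were more frequent at the summit, and examples off the first chromosome show the element in capitals, first CACGTG and then GAGAGAGA or its reverse complement.
F21C10.10 (chrV:9095799-9095899, plus strand): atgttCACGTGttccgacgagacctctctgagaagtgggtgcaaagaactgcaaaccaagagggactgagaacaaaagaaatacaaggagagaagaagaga
T28B11.1 (chrV:10715933-10716033, minus strand): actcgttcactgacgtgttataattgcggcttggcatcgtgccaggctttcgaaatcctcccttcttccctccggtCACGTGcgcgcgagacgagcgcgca
snrp-3 (chrIV:8687917-8688017, minus strand): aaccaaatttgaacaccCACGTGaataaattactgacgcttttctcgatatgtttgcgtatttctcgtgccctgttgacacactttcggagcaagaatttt
miz-1 (chrIV:10821899-10821999, plus strand): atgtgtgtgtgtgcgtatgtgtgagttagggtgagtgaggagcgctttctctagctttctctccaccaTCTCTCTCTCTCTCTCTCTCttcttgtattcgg
hsp-1 (chrIV:17278527-17278627, plus strand): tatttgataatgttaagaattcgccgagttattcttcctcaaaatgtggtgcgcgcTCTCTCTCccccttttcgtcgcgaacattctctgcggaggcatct

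CACGTG was in 36 windows (7.33%) against 11 (2.24%) in the right flank (exact McNemar adjusted p = 6.5e-04), in 1.58% of all promoters, and more often than its mirror word, with 13 windows (exact adjusted p = 0.0176). GAGAGAGA was in 39 windows (7.94%) against 10 (2.04%; exact adjusted p = 1.6e-04) and in 0.963% of promoters. Its mirror, the same repeat shifted by a letter, was in 36 windows, so that comparison says nothing about it. The repeat was in 18.6% of intergenic, 14.8% of in-gene, 3.76% of shared promoter and 5.95% of X-linked windows. These differences between classes were not tested. CACGTCA, a form of the element bound by ATF and CREB factors, was in 16 windows against 3 (exact adjusted p = 0.00526) and its mirror in 4 (exact adjusted p = 0.0304). The cAMP response element TGACGTCA, which overlaps it, passed against neither flank. It was in 10 windows against 3 to the right (exact adjusted p = 0.125) and 3 to the left (0.146), with its mirror in 0 (0.0176). CCGCCC, a short GC box, was in 21 windows against 5 (exact adjusted p = 0.00526), with the mirror word in 28.

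Words of A and T and the splice acceptor were rarer at the summit than in the right flank, where base composition also differed. TATAAA was in 22 windows against 51 in the right flank (exact McNemar adjusted p = 0.00142), a run of T of 8 letters in 20 against 50 (exact adjusted p = 0.00139), and TTTTCAG, the worm splice acceptor consensus, in 21 against 57 (exact adjusted p = 1.6e-04). Against reversed letters in the same windows, which hold composition constant, TATAAA did not pass (22 against 37, exact adjusted p = 0.11). TTTTCAG turned to more frequent in that comparison (21 against 6, exact adjusted p = 0.0266), and the run of T reads the same reversed. Over the 301 sites found in replicate 2 (a summit among that replicate's 1662 highest within 100 bp), CACGTCA (exact adjusted p = 0.183), CCGCCC (0.0733) and the run of T (0.223) missed the threshold. Over the 417 found in replicate 1, CCGCCC did (0.0505). In all, 10 of the 19 motifs passed, 7 higher and 3 lower at the summit. The elements of AP-1 (11 windows against 12) and GATA factors (TGATAA, 25 against 37) did not pass against the right flank, and the latter passed as lower against the left (54 windows, exact adjusted p = 0.003).

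**Figure D1:**
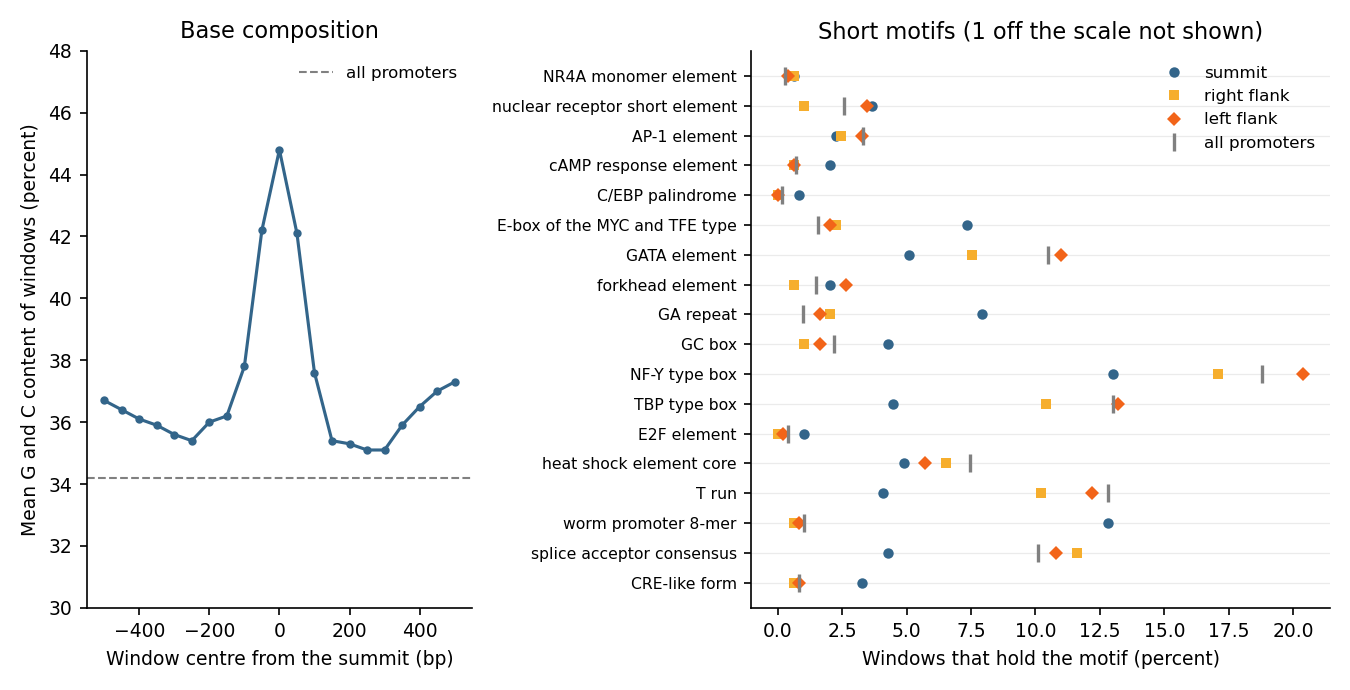
Left, mean G and C content (percent) of windows of the 491 one-gene promoter sites by distance of the window centre from the summit (bp), with the mean of all promoters dashed. Right, percent of windows that hold each short motif at the summit, in the flanks 250 bp away and in all promoters. G and C content peaks at 44.8% at the summit. CTGCGTCT (12.8%), the GA repeat (7.94%) and the E-box (7.33%) lie to the right of their flanks. CTGCGTCT is named the worm promoter 8-mer but was not confined to promoter sites. CGCG, at 36% of summits, is off the scale and left out.

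The element that NR4A receptors bind was rare. AAAGGTCA, on either strand, occurred in 3 of the 491 windows (0.611%, 95% exact interval 0.126 to 1.78%) and in 3 of the right flanks (exact McNemar p = 1). The background was 0.481% over all 1662 optimal peaks and 0.261% over all promoters. The 3 windows are shown with the element in capitals.
ceh-20 (chrIII:6979039-6979139, plus strand): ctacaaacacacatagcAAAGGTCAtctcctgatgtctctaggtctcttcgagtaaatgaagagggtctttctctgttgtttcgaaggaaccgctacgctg
pyc-1 (chrV:11822591-11822691, minus strand): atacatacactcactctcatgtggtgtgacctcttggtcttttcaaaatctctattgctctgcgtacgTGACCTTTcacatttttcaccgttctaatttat
Y17G7B.18 (chrII:12107946-12108046, minus strand): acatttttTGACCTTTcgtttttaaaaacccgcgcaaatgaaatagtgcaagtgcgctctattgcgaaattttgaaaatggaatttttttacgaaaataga

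These 3 sites were not among the strong ones. The ceh-20 site, at a homeobox gene of the PBX family, ranked 165 with a pooled signal of 92.99, and 70.75 in replicate 1 and 20.84 in replicate 2. The pyc-1 site, at the pyruvate carboxylase gene, had 72.41, 60.82 and 11.59, and the Y17G7B.18 site 66.13, 49.82 and 10.68. The centre of the element was 22 to 38 bp from the summit, with none centred within 20 bp. The short form AGGTCA, which AAAGGTCA contains, was in 18 windows (3.67%) against 5 in the right flank (exact adjusted p = 0.0202) but 17 in the left flank (exact adjusted p = 1). It missed the threshold over the sites found in replicate 2 (exact adjusted p = 0.266) or in replicate 1 (0.0505). It was in 2.58% of all promoters.

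Signals spread over more than an order of magnitude, with a long upper tail. The median pooled signal was 76.96, with quartiles of 61.37 and 106.6 and a range of 52.58 to 912.7. Of the 491 sites 141 exceeded 100, 31 exceeded 200 and 10 exceeded 300. After the 3 leading sites came enee-1 (535.2), his-37, which encodes histone H4 (451.7), cox-5A (403.3), egg-5 (380.1), H41C03.3 (365.7), lgg-2 (334.2) and gmeb-1 (320.8). egg-5 encodes a phosphatase-like regulator of the oocyte-to-embryo transition, and lgg-2 an LC3 homologue of autophagy. The lowest site, at the acyl-CoA synthetase gene acs-11, had 52.58.

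Sites ranked 11 to 30 had pooled signals from 298.2 down to 207.4. Among their genes were bag-1, a co-chaperone of Hsp70 (250), ntl-11 of the CCR4-NOT deadenylase complex (241.3), a further cytochrome c oxidase gene, cox-5B (226), the chromatin remodeller chd-7 (224.8), the α-tubulin gene tba-2 (219.2), and dld-1, the dihydrolipoamide dehydrogenase of mitochondrial enzyme complexes (213). icd-2, a subunit of the nascent polypeptide-associated complex, had 210.7, and the Integrator subunit gene ints-4 had 208.6. The remaining genes were K12H4.5, F36A2.7, zfp-1, eelo-2, a second summit of egg-5, tos-1, 2L52.1, miz-1, W06H8.6, F02E9.5, T28B8.1 and Y73B6BL.29. Of the 30 highest sites, 29 were among the 1662 highest peaks of both replicates.

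The replicates recovered strong sites alike and weak ones unequally. A summit was counted as found where one of the 1662 highest summits of a replicate, as many as the optimal set holds, lay within 100 bp. By this measure 417 sites (84.9%) were found in replicate 1 and 301 (61.3%) in replicate 2. Both found 248 (50.5%), against 50.4% of all 1662 optimal peaks. Replicate 1 alone found 169, replicate 2 alone 53 and neither 21. Of the 50 highest sites 49 were found in both, 47 of the next 50, then 79, 51 and 19 of the following 3 sets of 100, and 3 of the last 91. The pooled signal that ranks the sites was made from the same 2 replicates, so this fall is not independent of the ranking. The median G and C content of the windows went from 48% in the 50 highest sites to 41.6% in the last 91, and its part in the recovery was not tested.

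In the full lists of 30000 peaks, which include weak candidates, 484 sites had a summit in replicate 1 and 422 in replicate 2. The listed sites had replicate 1 signals of 15.71 to 627.8, with a median of 58.02. Their replicate 2 signals were 6.234 to 305.2, with a median of 22.77, on a scale that cannot be compared with that of replicate 1. Over the 417 sites listed in both, the signals had a Spearman rho of 0.44, a description across sites that share the same libraries. Of the 69 sites without a replicate 2 summit, 37 had one within 200 bp, and 5 had none within 1000 bp.

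The highest site with no match in replicate 2 was at egg-5, with a pooled signal of 380.1 and a replicate 1 signal of 304.6. The nearest summit of replicate 2 was 183 bp away, with a signal of 85.64, and belonged to the second egg-5 site (245.9 pooled, 189.2 in replicate 1). After it came F55H12.7 (162.3), the forkhead gene fkh-7 (93.52), vpr-1 (92.91) and EGAP1.1 (90.27), each with a replicate 2 summit at most 138 bp away. The 7 sites without a replicate 1 summit had a median pooled signal of 68.78, and the 69 without a replicate 2 summit one of 61.78. The highest of the 7 were rps-24 (97.75), nlp-24 (75.96), gsa-1 (75.57), adah-1 (68.78) and T26A8.4 (58.59). gsa-1, which encodes a stimulatory G protein subunit, and R02F2.1 had a site with no summit in either replicate's list.

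**Figure D2:**
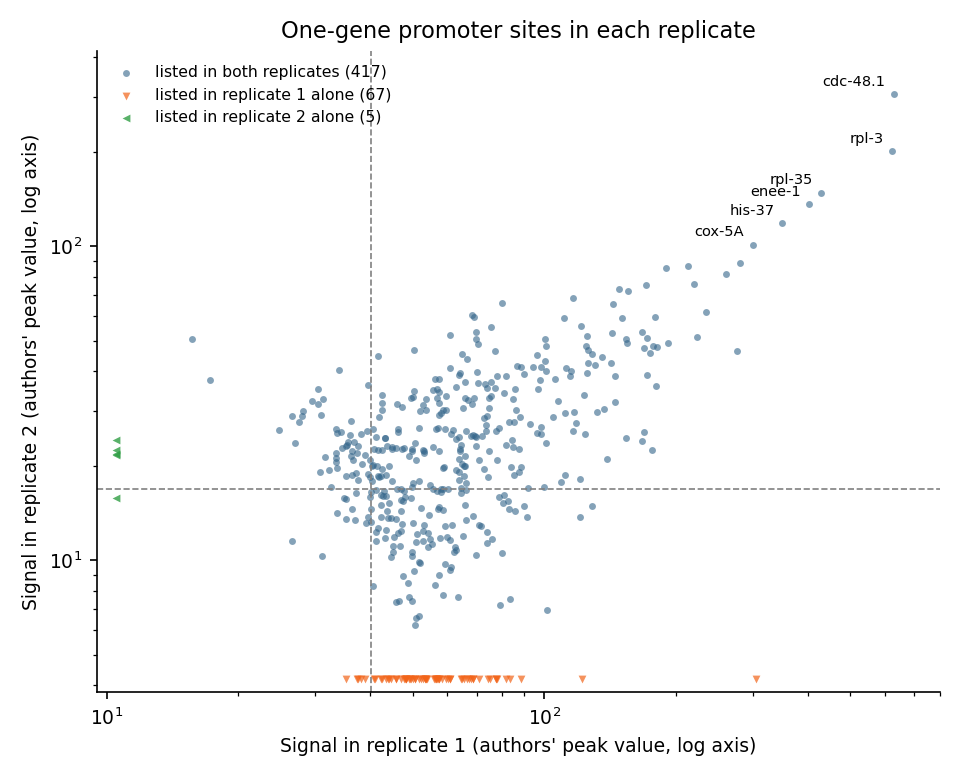
Signal of each one-gene promoter site in replicate 1 (x axis) and replicate 2 (y axis), both log axes in the authors' units; sites listed in 1 replicate are drawn at the margin, and dashed lines mark the signal of the last of the 1662 highest peaks (40.21 in replicate 1 and 16.85 in replicate 2). The strongest sites, led by cdc-48.1 at 627.8 and 305.2, rise together, while the cloud of weak sites falls on either side of the replicate 2 line.

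One-gene promoter sites were recovered less often than shared promoter sites. The share found in both replicates was 50.5% (95% exact interval 46 to 55%) against 68.4% (62.5 to 74.0%) of shared promoter sites, an odds ratio of 0.471 (two-sided Fisher's exact test, with p adjusted by Benjamini-Hochberg over 6 comparisons, adjusted p = 1.1e-05). In replicate 1 the shares were 84.9% and 85.0% (odds ratio 0.997, exact adjusted p = 1), and in replicate 2 they were 61.3% and 80.5% (odds ratio 0.385, exact adjusted p = 2.4e-07). The call thus rested on replicate 2, and whether the replicates differ in this was not tested. Of one-gene promoter sites 49.9% were among the 831 highest optimal peaks, against 63.5% of shared promoter sites (odds ratio 0.572, exact adjusted p = 9.8e-04). By replicate 1 signal alone this difference missed the threshold (odds ratio 0.672, exact adjusted p = 0.0583).

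Against the other autosomal sites the differences were smaller and did not pass. Intergenic sites were found in both replicates in 43.4% of cases (odds ratio of one-gene promoter sites 1.33, exact adjusted p = 0.0912) and in-gene sites in 44.9% (odds ratio 1.25, exact adjusted p = 0.165). For the 831 highest peaks the odds ratios were 1.34 (exact adjusted p = 0.0912) and 1.3 (exact adjusted p = 0.108). With summits matched within 50 bp, both differences in recovery passed (odds ratios 1.47 and 1.54, exact adjusted p = 0.0241 and 0.0166). By replicate 2 alone the recovery against intergenic sites (odds ratio 1.4) and the upper share against in-gene sites (1.42) passed, both with an exact adjusted p of 0.0413. Median pooled signals were 76.96 at one-gene promoters, 89.77 at shared promoters, 72.58 between genes and 72 inside genes.

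**Figure D3:**
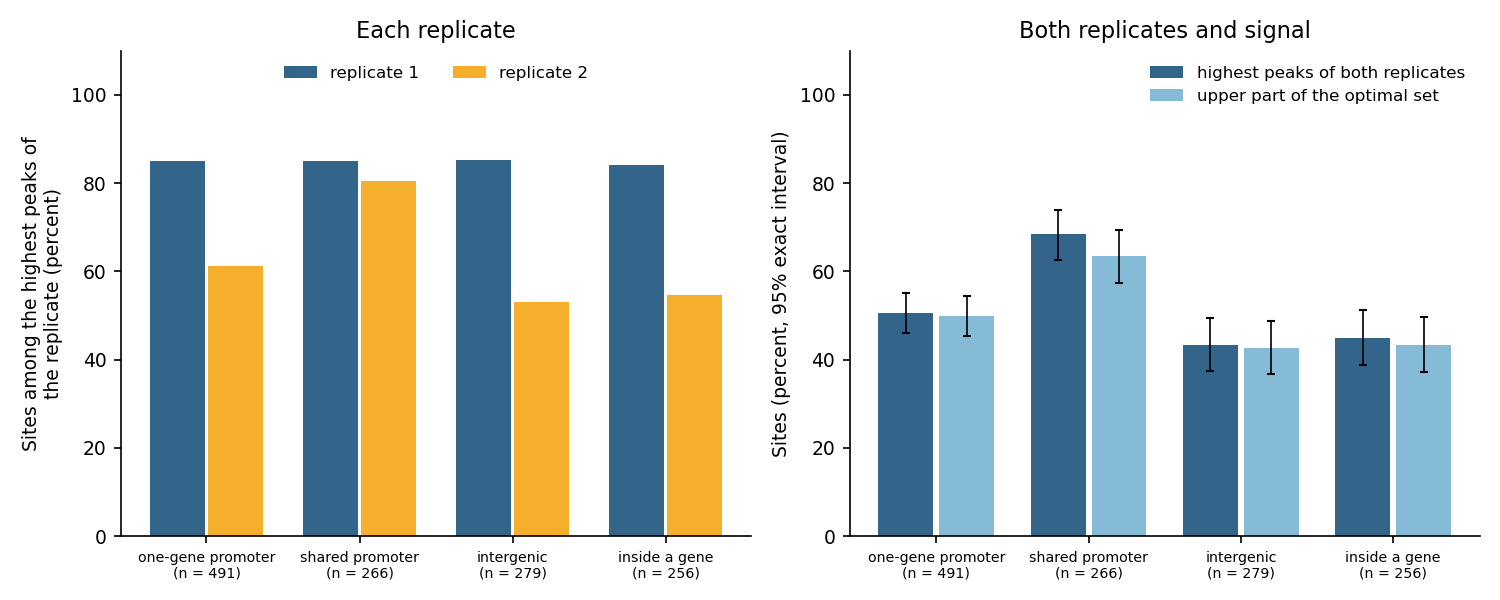
Left, percent of sites in each autosomal class among the 1662 highest peaks of replicate 1 and of replicate 2. Right, percent found in both replicates and percent in the upper part (831 peaks) of the optimal set, bars with 95% exact intervals; the classes are level in replicate 1 (84.0 to 85.3%), and shared promoter sites stand higher in replicate 2 (80.5%).

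Summits gathered just upstream of the gene. Of the 491, 458 lay upstream of the nearest 5′ end and 33 at or downstream of it, with a median of 250 bp upstream and quartiles of 128 and 442 bp. The window was not filled evenly. Counted per Mb of sequence that belongs to exactly 1 gene's window, density was highest from 100 to 200 bp upstream, at 66.5 per Mb, and fell to between 11.1 and 17.5 per Mb beyond 500 bp. From 100 to 200 bp downstream it was 5.13 per Mb, with 9 sites. Annotated worm 5′ ends often mark the trans-splice site and not the start of transcription, so these distances are to the annotation.

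**Figure D4:**
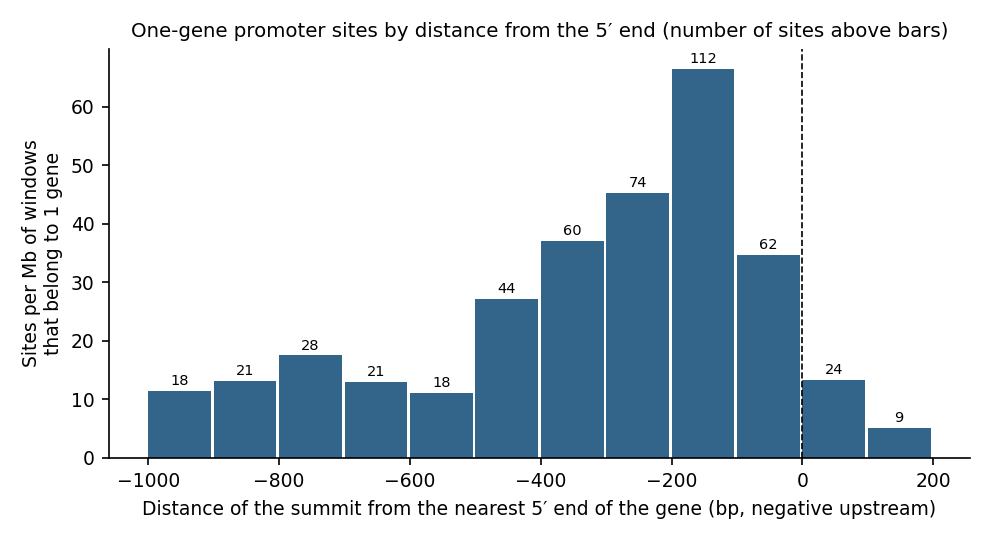
Density of one-gene promoter sites (per Mb of windows that belong to 1 gene) in bins of 100 bp by distance from the nearest annotated 5′ end, negative upstream; numbers above bars are sites. Density peaks at 66.5 per Mb between 100 and 200 bp upstream and is lowest, 5.13 per Mb, in the last bin downstream.

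Summits at the edges of the window had no common level. Just inside the upstream edge were zfp-1 (1000 bp, signal 175.5) and mrpl-23 (991 bp, 83.6), and just outside it nhr-34 (1003 bp, 119.6) and nac-3 (1005 bp, 89.48). Inside the downstream edge were Y71F9AL.8 and F53E10.1 (both 180 bp, 57.81 and 56.54), and outside it ZK112.4 (204 bp, 70.31) and T26A5.8 (228 bp, 59.17).

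Most summits, 328 (66.8%), lay between annotated genes. A further 80 (16.3%) were in an intron of the gene itself, 23 in its 5′ UTR and 8 in its coding exons, while 26 were inside another protein-coding gene and 24 in a non-coding gene. Genes with a site more often had several annotated starts: 51.5% of the 462 had more than 1 distinct 5′ end, against 27.8% of the 16763 autosomal genes that own part of a window. Each further 5′ end adds window, so this comparison is not independent of the rule, and it was not tested. The genes were also longer (median 2864 against 1985 bp) and had a larger gap to the upstream neighbour (median 1466 against 866 bp). A wide gap leaves more window to a single gene, so the gap is not independent of the rule either. Neither difference was tested.

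Some of these sites lay at inner starts of genes. Each inner end adds window, so their number is not independent of the rule, and it was not tested. Of 264 sites at genes with several 5′ ends, 177 were nearest to the outermost end and 87 to an inner one, of which 71 were over 1 kb inside the gene. The zfp-1 summit with 280.6 lay 674 bp upstream of a 5′ end that is 11284 bp downstream of the outermost one, and the miz-1 summit (222.3) was at an end 10260 bp inside. At skn-1, which encodes the oxidative stress factor related to Nrf, the summit (111) was at an end 4779 bp inside. The synaptic vesicle GTPase gene rab-3 had its site (122.8) at an end 3123 bp inside.

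Most genes had a single site: 434 had 1, 27 had 2 and only drap-1 had 3. The drap-1 summits, at a gene for a subunit of the NC2 corepressor of RNA polymerase II transcription, had pooled signals of 110.1, 61.65 and 64.63 and spanned 857 bp. The 2 summits of lgg-2 (334.2 and 123.4) were 735 bp apart, and those of zfp-1 (280.6 and 175.5) 4747 bp apart. crh-1, the CREB gene, had sites 32128 bp apart at different starts, with 102.9 and 56.89. The AP-1 gene jun-1 had 117 and 54.31, 4937 bp apart, and kin-1, the catalytic subunit of protein kinase A, had 76.75 and 69.09.

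The paired sites of egg-5 and H41C03.3 flanked genes of the SL2 spliced leader, the short RNA that is joined to transcripts of downstream genes in worm operons. The egg-5 summits, 211 bp apart, lay 19 bp upstream and 192 bp downstream of the 5′ end of sls-2.4. The H41C03.3 summits (365.7 and 107) lay 28 bp upstream and 173 bp downstream of the 5′ end of sls-2.1. In replicate 1 these pairs had 304.6 and 189.2 at egg-5, and 279.3 and 63.94 at H41C03.3. For these sites the rule names the protein-coding gene, whose 5′ end was 598 to 940 bp away, while the SL2 gene was nearer. Of the 18 autosomal sls-2 genes, these 2 were the ones with a one-gene promoter site.

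Other non-coding genes also began near the sites, at shares near those of shared promoter sites for the larger classes. At least 1 snRNA-type 5′ end lay in the same window as 7 sites (1.43%, against 0.376% of shared promoter sites), all within 200 bp of the summit. A lincRNA 5′ end lay in that of 7 (1.43%, against 0.752% of shared promoter sites). A snoRNA 5′ end lay in that of 19 (3.87%, against 4.51% of shared promoter sites). The general class of ncRNA, with 5244 autosomal genes, was present at 75 sites (15.3%, against 13.5% of shared promoter sites). These differences were not tested. The W06H8.6 summit (221.7) lay inside a non-coding gene, as did that of dld-1 (213). The cmtr-1 summit (144.7), at a gene for an mRNA cap methyltransferase, lay 91 bp upstream of the snoRNA gene Y53F4B.47.

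Sites were spread unevenly over the autosomes. Of the genes that own part of a window, 2.76% (462 of 16763) held a site. The share was 3.66% on chromosome I, 3.13% on II, 3.77% on III, 2.67% on IV and 1.51% on V, where 78 sites lay. The central one of 3 equal parts of each chromosome held 48.1% of the sites and 37.9% of those genes. These differences were not tested, and the other classes of peak were not set beside them. Median signals differed little, from 76 on V to 78.7 on IV. The leading sites were egg-5, F36A2.7 and bag-1 on I, cdc-48.1, enee-1 and H41C03.3 on II, rpl-3, rpl-35 and cox-5A on III, lgg-2, eelo-2 and ntl-11 on IV, and his-37, tos-1 and W06H8.6 on V.

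The share of genes with a site was set out for 52 gene lists beside the 2.76% of all eligible genes. Lists were formed by gene symbol with earlier results in view and carry no test, and 36 of the 52 lay above 2.76%, so a share above it does not set a list apart. A share counts every site, also one that was not found in both replicates. Both found 7 of the 11 large ribosomal subunit sites, 4 of the 8 bZIP sites and all 3 heterochronic sites. They found 0 of the 3 insulin and dauer sites. On the list of large ribosomal subunit genes 11 of 40 (27.5%) had a site, and on the small subunit list 4 of 26. The 11 include ubl-1, which encodes a small subunit protein and was placed on the large subunit list. After rpl-3 and rpl-35 came rpl-24.2 (121.1), which is related to ribosome assembly factors, and rpl-41.2 (95.51), and the highest small subunit sites were at rps-24 (115.8 and 97.75) and rps-4 (90.85). Their median signals, 81.4 for the large and 90.8 for the small subunit, were near the 76.96 of all sites, so that most ribosomal sites were of ordinary strength beside the 2 leading ones. Mitochondrial ribosomal genes had 5 of 63, with mrpl-28 (168.9), mrpl-55 (98.56) and mrpl-23 (83.6) highest. The mrpl-23 summit was 991 bp from that gene's 5′ end and 52 bp upstream of the snoRNA gene T08B2.13. Translation factors had 3 of 38, eif-3.C (120.2) and eif-3.B (117.5), which encode subunits of initiation factor 3, and eif-2Bgamma (53.06). The eif-2Bgamma summit was 712 bp from that gene's 5′ end and 191 bp from an snRNA-type 5′ end. The aminoacyl-tRNA synthetases, with 0 of 31, and the vacuolar ATPase, with 0 of 13, had none.

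Sites were also counted in energy metabolism and protein turnover. The respiratory chain had 7 of 60 genes (11.7%), of which cox-5A, cox-5B, cox-6A (105.4) and cox-4 (91.47) belong to cytochrome c oxidase, beside cyc-1 of complex III (87.16), ndus-8 of complex I (65.01) and the ATP synthase gene atp-4 (53.77). The cox-6A summit lay inside the snRNA gene F54D8.7, 18 bp from its 5′ end and 844 bp from that of cox-6A. In glycolysis and the citric acid cycle 6 of 35 genes had a site, led by dld-1 (213), the kinase of pyruvate dehydrogenase pdhk-2 (106.7) and pyc-1 (72.41). The ubiquitin system had 12 of 68 (17.6%), with the ligases wwp-1 (192.7) and eel-1 (140.9) after cdc-48.1. The proteasome had 3 of 30, pas-5 of its core (82.27) and rpn-11 (70.15) and rpt-6 (58.24) of its regulatory particle. The pas-5 summit lay inside the snoRNA gene F25H2.15, 93 bp from its 5′ end and 991 bp from that of pas-5. Of chaperone genes 4 of 62 had one, the highest at hsp-1, an Hsp70 gene (192.9), dnj-9 (160.3) and sti-1 (91.67). Vesicle traffic genes had 8 of 91, led by the ESCRT gene vps-25 (134.5), rab-3 (122.8) and the ESCRT gene vps-37 (121.1). Lipid metabolism had 8 of 133, with nhr-49 (145.5), mboa-2 (83.38) and dhs-17 (77.28) highest.

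Lists of gene regulation ranged from 3.33% to 22.2%. Chromatin regulators had 12 of 79 genes (15.2%), with chd-7 (224.8), the acetyltransferase gene cbp-1 (199.8) and set-4 (133.2) highest. The chd-7 summit was 893 bp from that gene's 5′ end and 142 bp upstream of the lincRNA gene linc-91. The cbp-1 summit was 868 bp from the 5′ end of cbp-1, with an ncRNA 5′ end in the same window. RNA polymerase II and Mediator had 2 of 60 (3.33%), taf-12 (62.86) and snpc-3.4 (55.41). Genes of microRNA silencing and P-bodies had 6 of 29 (20.7%), namely ntl-11 (241.3), vig-1 (157.5), ntl-2 (130.8), the microRNA processing gene pash-1 (74.85), edc-4 (70.11) and cgh-1 (65.7). Both replicates found 4 of these 6 sites, and the replicate 2 summit nearest to the cgh-1 site was 1105 bp away. Splicing genes had 6 of 61, the highest at hrpu-2 (89.38), the SR protein gene rsp-6 (88.9) and hrpa-1 (85.02). Nuclear pore and transport genes had 3 of 37, imb-3 (176.2), npp-8 (86.43) and npp-13 (66.07), and histones 3 of 66, his-37 (451.7), hil-7 (64.28) and his-72 (59.11). Heterochronic genes, which time larval fates, had 2 of 9, or 22.2%, lin-28 (157.8 and 106) and lin-66 (100.8).

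Transcription factors were listed by family, and differences between the families were not tested. The bZIP factors had 6 of 26 genes (23.1%): jun-1 (117), skn-1 (111), crh-1 (102.9), zip-2 (81.21), atf-7 (76.36) and xbp-1 (72.3), the last a factor of the unfolded protein response. Nuclear hormone receptors, the family of NHR-6 itself, had 8 of 246 (3.25%), close to the background. They were led by nhr-49, a regulator of fat metabolism (145.5 at 310 bp and 58.41 at a second site), nhr-21 (96.73) and the hypoxia-induced nhr-57 (92.49). bHLH genes had 3 of 31, hlh-11 (135), hlh-30 of the TFEB type (78.08) and hif-1 of the response to low oxygen (71.85). Of homeobox genes 2 of 72 had one, ceh-20 (92.99) and unc-42 (53.02). Forkhead, GATA, T-box and SOX genes had 2 of 38 (5.26%), fkh-7 (93.52) and daf-16 of the FOXO type (60.38), and zinc finger and other factors 3 of 67 (4.48%), ztf-7 (169.2), hmg-1.2 (141.6) and mef-2 (58.53).

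Signalling and cell structure lists ranged from none to 16%. Ras and MAP kinase genes had 4 of 25, with mlk-1 (120.1), mnk-1 (63.15) and jnk-1 (58.08) highest, and the cell cycle list 5 of 73, led by cdc-48.1, pcn-1 for PCNA (125.4) and cdk-7 (97.5). Insulin and dauer genes had 2 of 62, din-1 (86.41 and 67.25) and daf-16. The Wnt list had 1 of 25 (dsh-2, 73.04) and the TOR and AMPK list 1 of 16 (aakg-5, 100.9). Cytoskeleton genes had 2 of 72, tba-2 (219.2) and the β-tubulin gene tbb-2 (87.86), and adhesion genes 2 of 55, inx-13 (63.85) and pat-6 (55.03). The TGF-beta and Notch list had 0 of 35.

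Several large sensory and defence families lay below 2.76%. Chemoreceptors had 3 of 1274 (0.235%), at srh-2 (75.9), at srdh-1 (58.76) and at srh-269 (56.36). Among F-box genes it was 1 of 299 (fbxb-72, 88.12), among collagens 1 of 144 (sqt-2, 67.18), and among C-type lectins 0 of 230, which allows a share of up to 1.59% by the exact interval. Ion channels and transporters had 0 of 217 and genes of the epidermis and molting 0 of 88. Major sperm proteins had 0 of 56 and UDP-glucuronosyltransferases 0 of 62. Cytochromes P450 had 1 of 67 (cyp-13A2, 59.61), glutathione S-transferases 1 of 45 (gst-9, 55.05), proteases and inhibitors 1 of 87 (nas-4, 56.84) and neuropeptides 1 of 70 (nlp-24, 75.96).

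The tissue lists were small, and most lay near or above 2.76%. Intestine had 2 of 28 (7.14%), glo-4 (120.1) and elo-1 (56.12), and body wall muscle 1 of 28 (3.57%), pat-6 (55.03). Pharynx had 2 of 73 (2.74%), pqn-27 (130) and pqn-70 (68.81). Germline had 3 of 74 (4.05%), mes-2 of the Polycomb complex (80.57), ego-1 (65.9) and gld-2 (62.75), and spermatheca and gonad 1 of 23 (4.35%), which was jun-1. Synaptic genes had 5 of 48 (10.4%), with rab-3 (122.8), the receptor chaperone gene ric-3 (100.5) and maco-1 (87.93) highest. Altogether 161 of the 462 genes were in any of the 52 lists, and 127 carry only a sequence-style name.

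**Figure D5:**
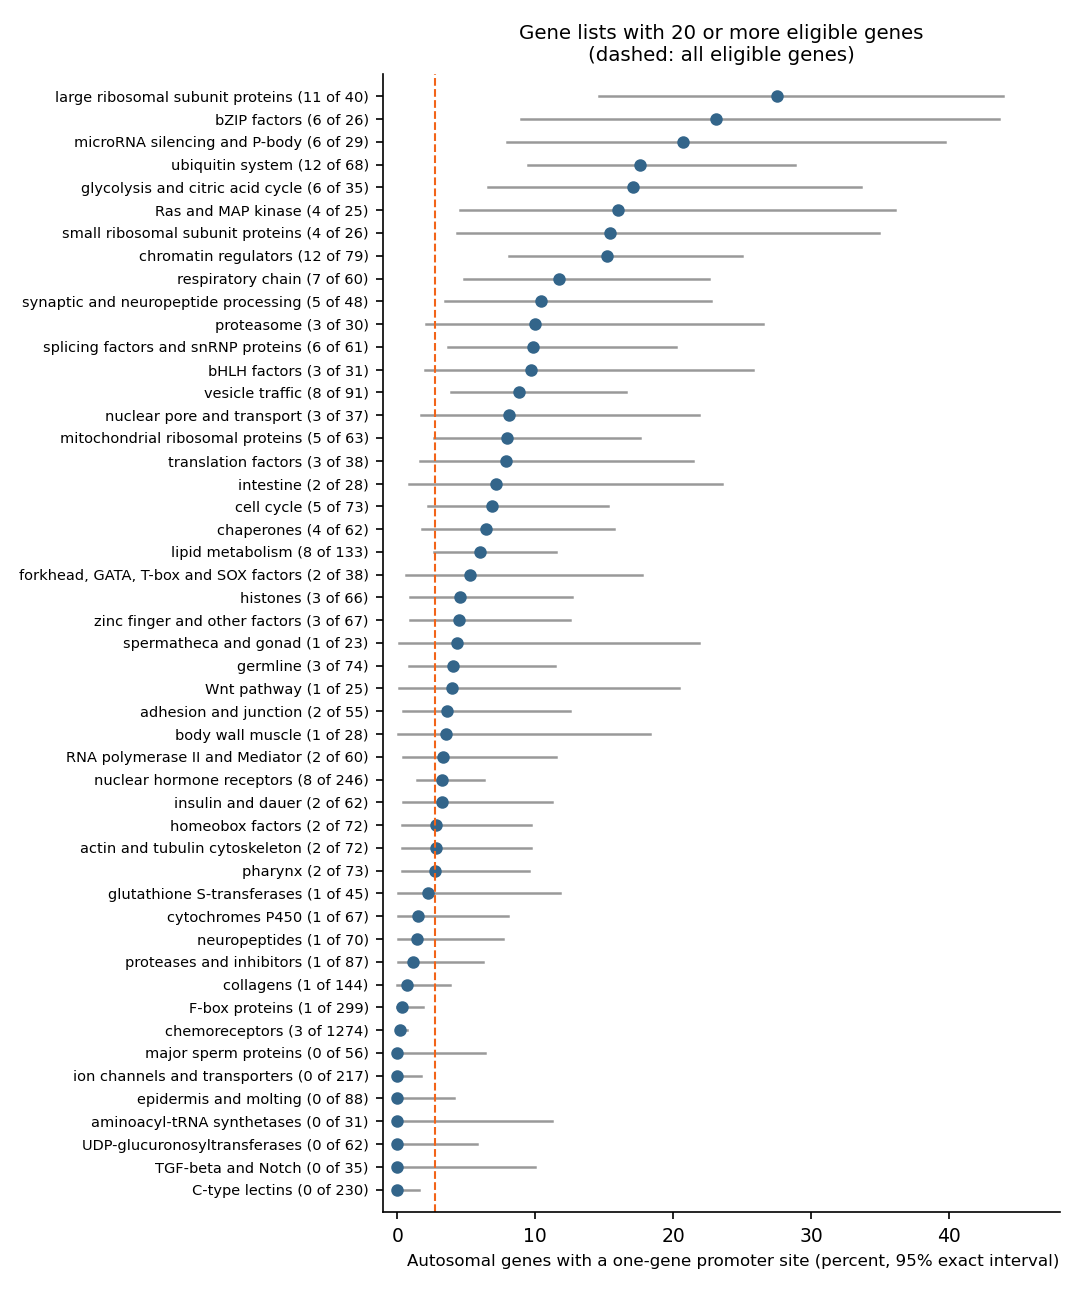
Percent of eligible autosomal genes with a one-gene promoter site in each list of at least 20 eligible genes (points), with 95% exact intervals (lines); the dashed line is the 2.76% of all eligible genes. The large ribosomal subunit list (27.5%, with ubl-1 counted) and bZIP factors (23.1%) lie at the top, and chemoreceptors (0.235%) and C-type lectins (0 of 230) at the bottom.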

How the data were processed

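Peak lists of 2 ChIP-seq samples (1 group, replicate numbers from the labels) on ce11 were used, which equals WBcel235; lists on ce10 were not used. Per the deposited file lists, the authors called relaxed peaks per replicate and on both pooled and derived the optimal set by IDR (irreproducible discovery rate); the sources used here name no aligner, caller, version or threshold. The signal is the authors' deposited value per peak, with unknown scale, and was used only to rank and describe peaks within a list. The authors' −log10 q-value of each peak stood at its best value of 3.4 in 368 of the 491 sites. Peaks were 344 bp wide in 458 sites (93.3%). Depth is unknown from peak lists.

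Gene models were from Ensembl release 115. Summits were matched to replicate summits within 100 bp. Classes were compared with Fisher's exact test (two-sided, 6 comparisons), and words within 50 bases of the summit and of a point 250 bp away with the exact McNemar test (19 motifs), each with Benjamini-Hochberg adjustment at 0.05. AAAGGTCA contains AGGTCA, and TGACGTCA and CACGTCA overlap. Intervals are exact (Clopper-Pearson, 95%) and cover counting error over sites, which are not replicates. Python 3.11.15, scipy 1.17.1, numpy 2.4.6 and matplotlib 3.10.9 were used, and the tests were checked on simulated data. Alternatives were windows from 500 and 2000 bp upstream, the 831 highest peaks, each replicate left out, matching within 50 or 200 bp, any relaxed peak, other flanks and window sizes, and reversed letters.

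Named genes were the 30 highest sites, the 3 highest per autosome and per list, the 5 genes with most sites, up to 5 with the NR4A element (3 exist), the 5 highest missed by each replicate, those at the window's edges and the lowest. Further genes named with motifs, inner starts, several sites, non-coding neighbours or within lists were chosen after their values were seen, as was the run AGCGTGTTTT. The members and lists were chosen with earlier results of these data known.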

Additional observations from a re-analysis of the deposited data

How the results depend on the processing

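The number of one-gene promoter sites kept to within 1.5 times of 491 with other promoter windows and with either replicate's highest peaks in place of the optimal set (486 to 504), and was 245 among the 831 highest peaks, a smaller set by construction. The lower recovery than at shared promoters passed in every setting run except without replicate 2, with odds ratios of 0.385 to 0.997 with a replicate left out; the lower share in the upper part had 0.445 to 0.672. With a replicate left out, recovery against intergenic sites had odds ratios of 0.971 to 1.4 and against in-gene sites 1.07 to 1.31, and the upper share 1.03 to 1.34 and 1.23 to 1.42. Recovery against intergenic and in-gene sites passed with the window from 500 bp upstream (odds ratios 1.41 and 1.43) and with matching within 50 bp (1.47 and 1.54). With the window from 2000 bp, the odds ratios against in-gene sites fell to 0.972 for recovery and 0.996 for the upper share. The cause was not tested. The NR4A element had 0 percentage points of difference from the flank, -0.664 to 0 with a replicate left out, and the short form AGGTCA 2.65 (exact McNemar p = 0.0106). Motifs past the threshold numbered 10, then 11 against the left flank, 7 of 18 against reversed letters and, in a setting chosen after seeing the data, 7 to 8 with a replicate left out, which leaves fewer sites. Against reversed letters CCGCCC (-1.43 percentage points), CGCG (-6.11) and TTTTCAG (3.05) changed direction. AGGTCA and CCGCCC missed the threshold with either replicate left out. No paired analysis was possible because there is 1 group. Unknown depth limits statements about weak sites, of which replicate 2 found fewer.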

Other observations

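Some sites lay near a chromosome end. Within 50 kb of the ends of the autosomes were 10 sites, at 9 of 91 eligible genes, beside 2.76% of all eligible genes, and 3 of the 10 were among the 30 highest. Nothing was tested here, and the other 7 ranked from 65 to 371. Most were at the left end of chromosome II: enee-1 (535.2, 24.6 kb from the end), gmeb-1 (320.8, 19 kb), 2L52.1 (222.6 and 73.47, 1.5 and 2.92 kb), osta-1 (143.5, 6.55 kb), F23F1.4 (132.6, 28.5 kb) and sqt-2 (67.18, 23.4 kb). The 3 highest of these had replicate 1 signals of 402.1, 275 and 180.5 and replicate 2 signals of 136.2, 46.49 and 47.67. Mappability and copy number at chromosome ends were not measured here. Neither nhr-6 nor unc-119, the loci that the transgene or the strain's mutation concerns, had a one-gene promoter site within 20 kb. Of other optimal peaks, unc-119 had 2 within 20 kb, both in the in-gene class, and nhr-6 had 0.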
